A study of Mus musculus with 6 samples.

Results

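Broad peaks of 5-hydroxymethylcytosine (5hmC) in mouse induced pluripotent stem (iPS) cells are described here through the 5 other peak lists of the same reprogramming series. They were selected by width alone, as the peaks of the iPS 5hmC list with an end minus start of 3000 bp or more. There were 2556 of them among 174079 iPS 5hmC peaks, or 1.47% of the list, and they held 9.92 Mb, or 5.32% of its length. For comparison, the 97337 iPS 5hmC peaks of 700 to 1200 bp were measured in the same way, and are called typical peaks below.

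5hmC is made when Tet enzymes oxidise 5-methylcytosine (5mC), the usual methylated base of mammalian DNA. It can be an intermediate on the way to an unmethylated cytosine, and it can also persist as a mark of its own. In pluripotent cells, where Tet1 is abundant, 5hmC is known from gene bodies, from enhancers and from the surroundings of promoters, and it needs 5mC as its substrate.

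The series profiled both marks by immunoprecipitation of genomic DNA and sequencing at 3 stages of a secondary reprogramming system, with 1 library per stage and mark. The 3 stages carried the same strain background, OG2-GFP/Rosa26-M2rtTA, in which rtTA is the activator that doxycycline switches on. Fibroblasts at passage 4 came from mice made with iPS cells that had been induced by Tet1, Sox2, Klf4 and c-Myc, and the day-3 cells were such fibroblasts after 3 days of doxycycline in ES medium. The iPS cells were a line from this system at passage 10 to 15, grown on mitomycin C-treated feeder cells in medium with LIF, and the protocol describes a short plating step to remove feeder cells before collection. Fibroblasts, day-3 cells and iPS cells therefore differed in medium and passage as well as in state. The 6 lists held 42301 to 174079 peaks. The read depth behind each list is unknown, there is no replicate error, and no test between lists was possible, so each statement describes single libraries.

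The broad peaks were mostly just above the limit of width. The median width was 3543 bp and the 75th percentile 4164 bp. Of the 2556 peaks, 1217 were under 3500 bp, 578 lay from 3500 to under 4000 bp, 501 from 4000 to under 5000 bp, 214 from 5000 to under 7000 bp, 34 from 7000 to under 10000 bp and 12 at 10000 bp or more. The widest reached 18006 bp. Their scores, the peak caller's own value per peak, ran from 236 to 3221 with a median of 787, against a median of 96.7 for typical peaks. Width and score went together among broad peaks (Spearman's rho 0.58 over 2556 peaks of 1 library, as a description). The values on both sides of the limit of 3000 bp were close for most measures. The 389 peaks of 2900 to 2999 bp and the 326 peaks of 3000 to 3099 bp had median scores of 579 and 584, and fibroblast 5mC covered 54.0% and 54.4% of their length. Day-3 5mC covered 63.8% and 65.02%, iPS 5mC 30.1% and 30.3%, and fibroblast 5hmC 7.55% and 8.96%. Day-3 5hmC was lower just above the limit, at 31.6% against 35.6%.

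The first comparison asked which marks the same intervals carried in the other lists. It used the share of base pairs that peaks of another list cover, which does not grow with the width of an interval by itself as an overlap of a single base pair does. The share can still be lower on a wide interval than on a narrow one where a single narrower peak lies on each. Broad iPS 5hmC intervals had been covered by 5mC more widely than typical ones before and during induction, and 5mC also covered more of them in the iPS cells themselves. Fibroblast 5hmC was the exception, with a smaller covered share of broad than of typical intervals. Fibroblast 5hmC peaks on broad intervals had a median width of 915 bp. Any overlap with them, which favours wide intervals, was more frequent on broad intervals, at 25.6% against 14.2%.

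Fibroblast 5mC covered 58.6% of the length of broad intervals and 31.7% of that of typical intervals. Day-3 5mC covered 67.9% and 44.1%. iPS 5mC covered 34.9% and 16.7%, the largest ratio of the 5 full lists at 2.09. Each of these 3 differences had the same direction on 19 of 19 autosomes. On single autosomes, fibroblast 5mC cover of broad intervals ran from 47.7% to 65.4% and that of typical intervals from 28.8% to 35.7%, so that the ranges did not overlap. The iPS 5mC ranges, 23.5% to 40.03% and 14.7% to 18.7%, did not overlap either.

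Day-3 5hmC covered 37.2% of the broad length and 25.1% of the typical length, again with the same direction on 19 of 19 autosomes. Fibroblast 5hmC covered 8.29% and 11.5%. Broad intervals had the higher fibroblast 5hmC cover on 1 of 19 autosomes, chromosome 11, by 2.86 percentage points. Without the intervals that all 5 other lists cover by at least 50%, chromosome 11 also had less on broad intervals, at 7.48% against 9.47%, and the count became 0 of 19.

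**Figure D1:**
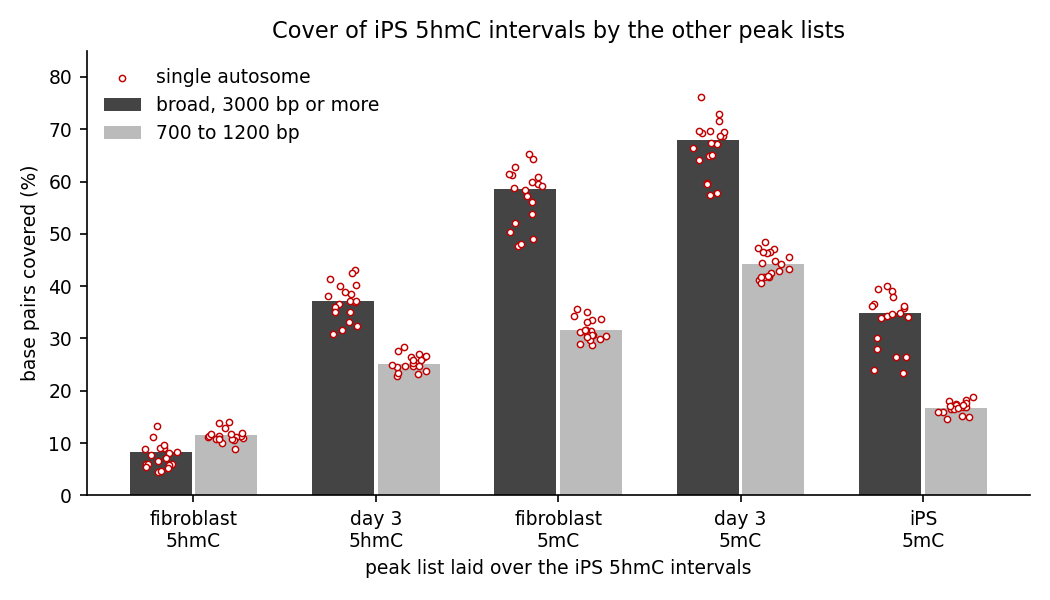
Share of base pairs of iPS 5hmC intervals covered by each of the 5 other peak lists (vertical axis, percent), for broad intervals (dark bars) and intervals of 700 to 1200 bp (light bars), with 1 circle for each of 19 autosomes. The dark bars are higher for day-3 5hmC and for the 3 5mC lists, and lower for fibroblast 5hmC, at 8.29% against 11.5%.

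Counted by interval, with an interval called covered where another list takes up at least 50% of it, most broad intervals carried earlier 5mC. Fibroblast 5mC covered 1586 of the 2556 broad intervals, or 62.1% (95% Wilson interval 60.2 to 63.9), against 35.2% of all iPS 5hmC peaks. Day-3 5mC covered 1934, or 75.7% (74.0 to 77.3), against 48.5% of all. iPS 5mC covered 730, or 28.6% (26.8 to 30.3), against 18.5% of all. Day-3 5hmC covered 835, or 32.7% (30.9 to 34.5), against 27.2% of all, a smaller gap than that of the 5mC lists. Fibroblast 5hmC covered 78, or 3.05% (2.45 to 3.79), against 13% of all.

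How much of an interval must be covered set the size of these shares and, in each list, which group was the higher. Any overlap, which favours wide intervals, was found for 90.5% of broad intervals with fibroblast 5mC, where 39.9% of all iPS 5hmC peaks had one. The same shares were 95.3% and 54.1% for day-3 5mC, 72.4% and 23.5% for iPS 5mC, 70.5% and 32.9% for day-3 5hmC, and 25.6% and 15.7% for fibroblast 5hmC. With at least 75% of the interval required, broad intervals were higher for fibroblast 5mC, at 32.9% against 26.7% of all iPS 5hmC peaks and 29.4% of typical ones, and for day-3 5mC, at 45.9% against 37.8% and 40.6%. They were lower for iPS 5mC, at 9.98% against 12.6% and 14.7%, for day-3 5hmC, at 16.4% against 20.3% and 22.2%, and for fibroblast 5hmC, at 1.45% against 10% and 10.4%. Whole broad intervals lay inside peaks of another list less often than typical ones in each of the 5 lists. The shares were 2.74% of broad, 8.17% of all and 8.94% of typical peaks for fibroblast 5mC, and 5.40%, 12.8% and 13.4% for day-3 5mC. They were 0.978%, 3.48% and 3.63% for iPS 5mC, 2.62%, 8.44% and 8.91% for day-3 5hmC, and 0.782%, 4.07% and 3.12% for fibroblast 5hmC. A wide interval is covered whole less readily than a narrow one.

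The cover by 5mC went up in steps with the width of the iPS 5hmC peak over the whole list. Fibroblast 5mC covered 16.9% of the length of peaks under 700 bp, 31.7% at 700 to 1200 bp, 42.8% above 1200 and under 2000 bp and 50.3% at 2000 to under 3000 bp. Within the broad peaks it covered 55.1% at 3000 to under 4000 bp, 61.2% at 4000 to under 5000 bp and 68.1% at 5000 bp or more. iPS 5mC covered 31.2%, 35.7% and 47.8% of the length in these 3 broad classes, and day-3 5hmC 34.5%, 39.7% and 44.0%. Fibroblast 5hmC went from 17.8% under 700 bp to 7.46% at 3000 to under 4000 bp, and was 11.6% in the widest class. That class includes intervals that all 5 other lists cover by at least 50%, described below. Among them, fibroblast 5hmC covered whole a peak of 13297 bp on chromosome Y and 1 of 10390 bp on chromosome 11. The share by width class without such intervals was not computed, so a rise with width is not shown.

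**Figure D2:**
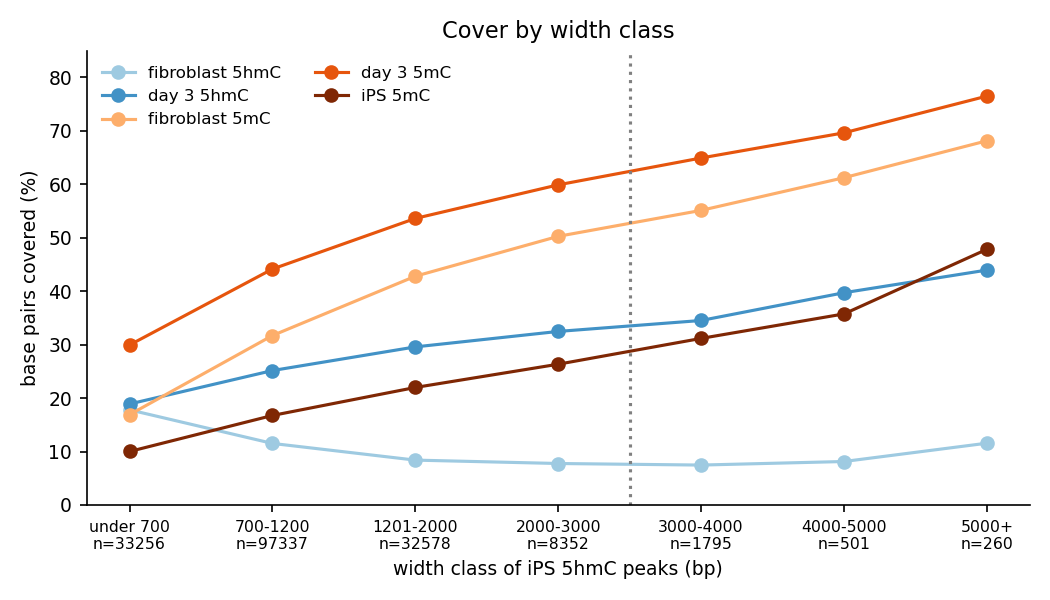
Share of base pairs covered by each of the 5 other lists (vertical axis, percent) in 7 width classes of iPS 5hmC peaks (horizontal axis, bp, with the number of peaks), where the dotted line marks 3000 bp. The 3 5mC lists and day-3 5hmC are higher in each wider class, while fibroblast 5hmC is highest below 700 bp, at 17.8%.

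Score moved with width, and the comparison turned when peaks of like score were set side by side. In the score class of 400 to under 600, the 574 broad intervals had 42.9% of their length covered by fibroblast 5mC and the 536 typical intervals 65.6%. For iPS 5mC the values in that class were 21.0% and 52.01%, for day-3 5mC 54.9% and 72.0%, for day-3 5hmC 31.96% and 46.4%, and for fibroblast 5hmC 7.10% and 42.5%. Broad intervals also had the lower cover in the classes of 200 to under 400, with 108 broad and 8044 typical peaks, and of 600 to under 1000, with 1075 and 55. Within broad intervals, fibroblast 5mC cover went from 32.6% in the class of 200 to under 400 to 72.5% at 1000 or more, and iPS 5mC cover from 14.3% to 49.4%. The wider 5mC cover of broad intervals therefore held against typical peaks as a whole and not against typical peaks of the same score. Typical peaks of high score were few among the 97337 and unlike the rest. In the class of 400 to under 600, fibroblast 5hmC covered 42.5% of their length, against 11.5% over all typical peaks. Intervals that all 5 other lists cover by at least 50% were kept in the score classes. These score classes were set after earlier results of these data were known.

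**Figure D3:**
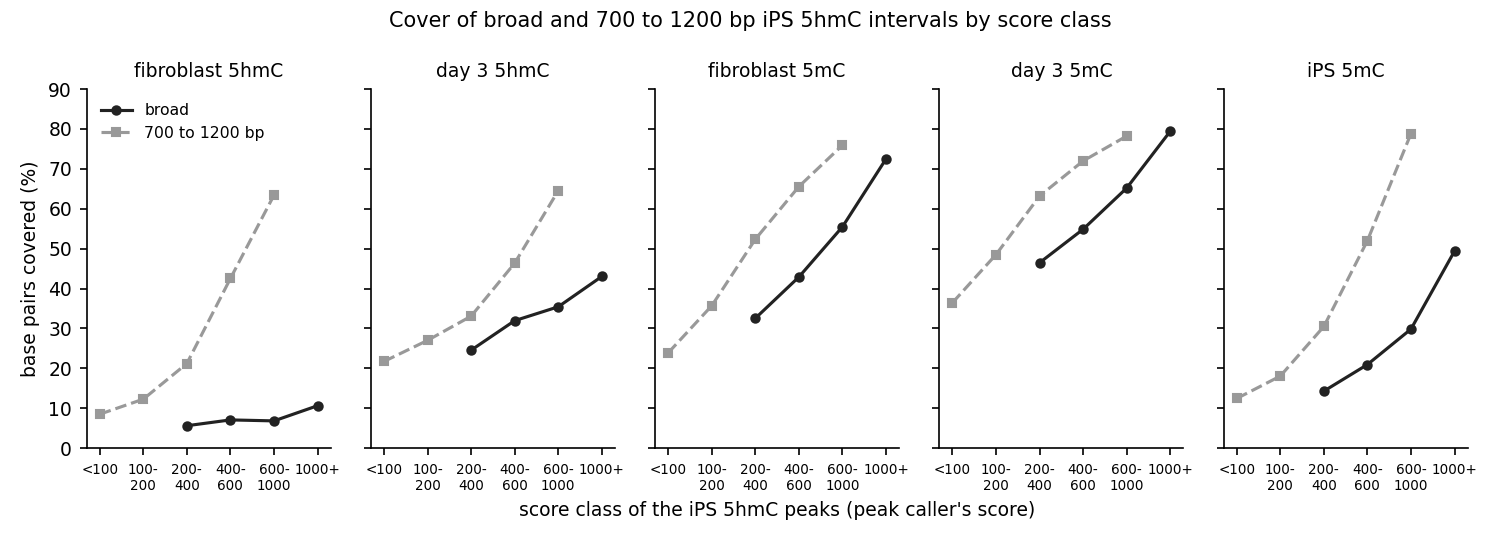
Share of base pairs covered (vertical axis, percent) by score class of the iPS 5hmC peaks (horizontal axis, the peak caller's score), for broad intervals (circles) and intervals of 700 to 1200 bp (squares), with 1 panel for each of the 5 other lists. Classes with fewer than 20 peaks are left out, and broad intervals lie below typical intervals in each shared class, for fibroblast 5mC at 42.9% against 65.6% in the class of 400 to 600.

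Broad peaks lay in surroundings rich in both marks. At 2 to 5 kb from their edges, other iPS 5hmC peaks covered 40.4% of the sequence, against 20.8% beside typical peaks, and at 20 to 100 kb they covered 26.7% against 17.6%. The nearest other iPS 5hmC peak was at a median of 488 bp from a broad peak and 1333 bp from a typical peak. Fibroblast 5mC covered 25.4% at 2 to 5 kb from broad and 11.7% at that distance from typical intervals. Day-3 5hmC covered 22.5% and 12.1% there, iPS 5mC 14.9% and 6.42%, and fibroblast 5hmC 4.60% and 2.85%.

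Measured against these surroundings, the step at a broad interval was no larger in proportion than at a typical one. The cover inside, divided by that at 2 to 5 kb, was 2.31 for broad and 2.70 for typical intervals with fibroblast 5mC. It was 2.03 and 2.58 with day-3 5mC, 2.34 and 2.61 with iPS 5mC, 1.65 and 2.07 with day-3 5hmC, and 1.803 and 4.04 with fibroblast 5hmC. A covered share has an upper limit, so the richer surroundings of broad intervals leave less room for a high ratio. As a difference in percentage points the step was larger at broad intervals for fibroblast 5mC, at 33.2 against 19.95, and for iPS 5mC, at 20.02 against 10.3. For fibroblast 5hmC it was smaller, at 3.69 against 8.66.

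Inside the broad intervals the other marks formed a plateau. When each interval was divided into 10 equal parts, fibroblast 5mC covered 44.1% of the first and 45.4% of the last part, and 58.6% to 63.7% of the 8 parts between. Day-3 5hmC covered 30.7% and 29.2% of the outer parts and 37.3% to 40.01% of the others. iPS 5mC covered 26.3% and 26.6% of the outer parts and 35.5% to 38.5% of the others. The outer parts thus had less cover than the middle, but more than the surroundings. Typical intervals had the same shape, with fibroblast 5mC at 23.9% and 23.7% in the outer parts and 35.4% in both middle parts, and iPS 5mC at 12.1% and 11.9% against 19.2%.

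**Figure D4:**
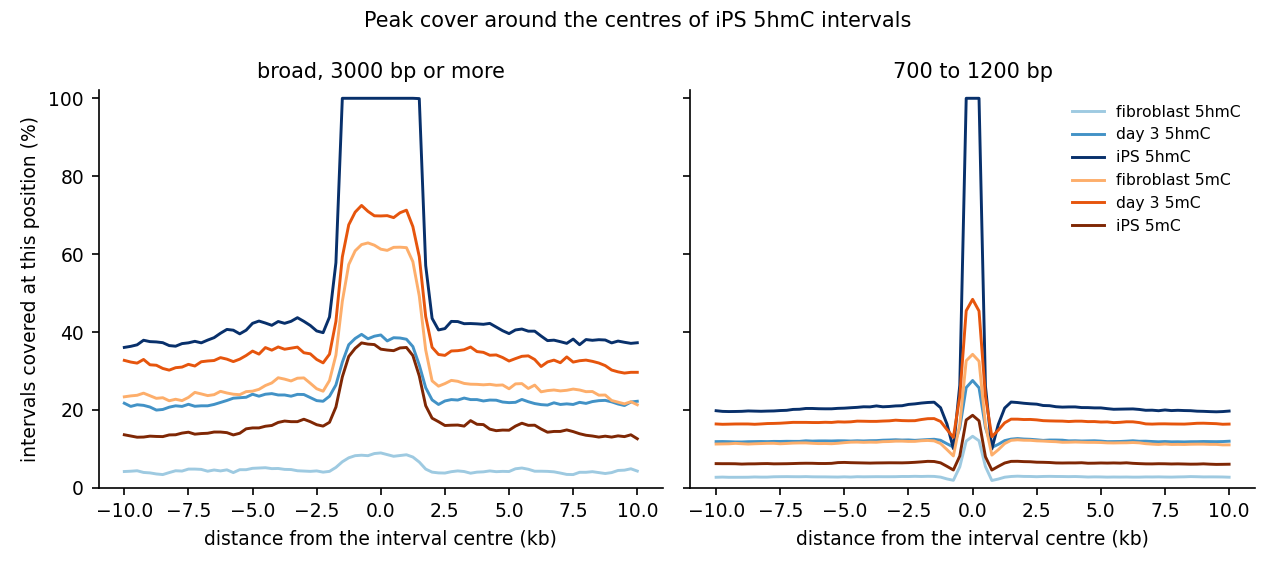
Share of intervals covered at each distance from the interval centre (horizontal axis, kb), for broad intervals (left) and intervals of 700 to 1200 bp (right), with 1 line for each of the 6 lists. The iPS 5hmC line is at 100% in the middle by construction, and the other lines form a plateau over broad intervals, for fibroblast 5mC at 61.3% at the centre, above surroundings that are higher than those of typical intervals.

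The cover of a broad interval was usually made of few, narrower peaks. Fibroblast 5mC had 1 peak on 1200 broad intervals, 2 on 908, 3 or more on 205 and none on 243. The 3634 fibroblast 5mC peaks that touched a broad interval had a median width of 1342 bp, against 932 bp for all others in that list. Day-3 5hmC had 1 peak on 1105 broad intervals, 2 on 558, 3 or more on 138 and none on 755, and its 2645 peaks there had a median width of 1170 bp against 922 bp elsewhere. Day-3 5hmC thus had 3 or more separate peaks on 5.40% of broad intervals and on 0.109% of all iPS 5hmC peaks, and fibroblast 5mC on 8.02% and 0.137%, but wide intervals raise such shares by themselves. Wider peaks also touch an interval more readily, which by itself raises the median width of the peaks that touch one.

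Broad peaks of the other lists coincided with only a part of the broad iPS 5hmC peaks. A fibroblast 5mC peak of 3000 bp or more lay on 432 broad intervals, or 16.9%, against 0.721% of all iPS 5hmC peaks. Seen from that list, 429 of its 842 broad peaks, or 51.0%, touched a broad iPS 5hmC peak. Day-3 5hmC had 1965 broad peaks, of which 302, or 15.4%, touched a broad iPS 5hmC peak, and these lay on 304 or 11.9% of the broad intervals (1.62% of all). The corresponding shares of broad peaks that touched one were 40.4% of 1595 for day-3 5mC, 58.0% of 226 for iPS 5mC and 52.8% of 53 for fibroblast 5hmC. They lay on 25.4%, 5.36% and 1.25% of the broad intervals, against 1.38%, 0.203% and 0.0569% of all iPS 5hmC peaks. Most broad day-3 5hmC peaks therefore touched no broad iPS 5hmC peak, while most broad iPS 5mC peaks touched one. Among peaks of any width, those that touched one were 2645 of 116087 for day-3 5hmC and 2666 of 61171 for iPS 5mC. They were 3634 of 104011 for fibroblast 5mC, 4033 of 165869 for day-3 5mC and 739 of 42301 for fibroblast 5hmC. A touch can be of any length and wide peaks meet one more readily, so these shares are not like measures.

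The second comparison followed each interval through the stages by the combination of lists that cover at least 50% of it. The commonest combination among broad intervals was 5mC in fibroblasts and at day 3 with no other list, at 589 intervals or 23.04% (21.5 to 24.7), against 12.6% of all iPS 5hmC peaks. The next was 5mC at all 3 stages without earlier 5hmC, at 472 or 18.5% (17.0 to 20.02), against 8.88% of all. No other list covered at least 50% of 353 broad intervals, or 13.8% (12.5 to 15.2), against 30.4% of all. Day-3 5hmC together with fibroblast and day-3 5mC was found on 262, or 10.3% (9.13 to 11.5), against 4.95% of all. Day-3 5mC alone covered 218, or 8.53%, against 8.8% of all, and day-3 5hmC alone covered 177, or 6.92%, against 9.97% of all. Next came day-3 5hmC with 5mC at all 3 stages, on 160 or 6.26% against 2.43% of all, and day-3 5hmC with day-3 5mC, on 138 or 5.40% against 3.18% of all. Day-3 5hmC alone was thus less frequent among broad intervals than in the list as a whole, and the 4 of these 8 combinations that include fibroblast 5mC were more frequent. Some rarer combinations with fibroblast 5mC were not, such as fibroblast 5mC alone, at 1.25% against 1.57% of all. The limit of 50% is met less readily by a single narrow peak on a wide interval, so these frequencies also depend on width.

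**Figure D5:**
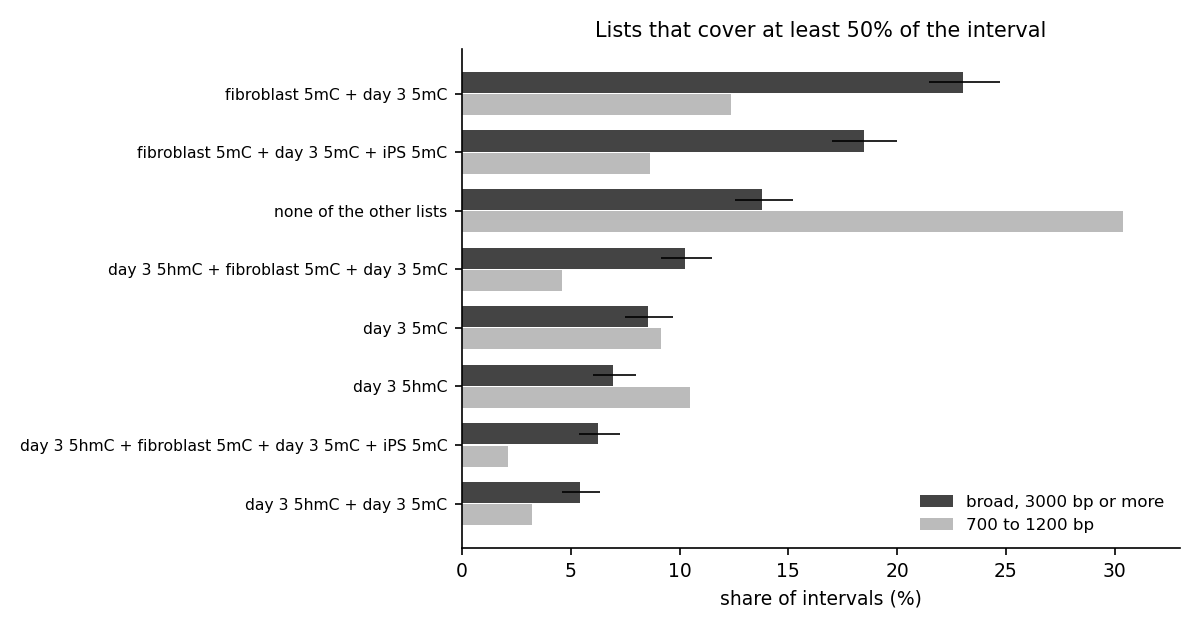
Share of intervals (horizontal axis, percent) by the combination of other lists that cover at least 50% of the interval, for the 8 commonest combinations among broad intervals (dark bars, with 95% Wilson intervals that cover counting error only) and for intervals of 700 to 1200 bp (light bars). The 4 of these combinations with fibroblast 5mC are more frequent among broad intervals, and no covering list at all is less frequent, at 13.8% against 30.4%.

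Earlier cover of either mark by at least 50% was present on 2193 broad intervals, or 85.8% (84.4 to 87.1), against 68.4% of typical ones. Of the broad intervals, 1700 or 66.5% (64.7 to 68.3) had neither fibroblast nor day-3 5hmC at this level. Typical intervals had nearly the same share, 65.1% (64.8 to 65.4). A single narrow peak meets the limit of 50% less readily on a wide interval, so these shares are not like measures. Any overlap with day-3 5hmC, which favours wide intervals, was found on 70.5% of broad and 30.5% of typical intervals. Any overlap with fibroblast 5hmC was found on 25.6% and 14.2%. How often 5hmC was first gained in iPS cells is therefore not shown for either group.

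Where fibroblast 5mC lay under a broad 5hmC peak, iPS 5mC was listed more often than under a typical peak. Of the 5.82 Mb of broad intervals that fibroblast 5mC covered, iPS 5mC still covered 52.3%. The share was 37.0% inside typical intervals and 26.1% of the fibroblast 5mC length outside all iPS 5hmC peaks. On 18 of 19 autosomes the share was higher in broad than in typical intervals, with ranges of 35.1% to 57.0% and 33.9% to 39.5%. The exception was chromosome 18, at 35.1% against 38.4%. In the 5000 typical peaks with a score of at least 236, the lowest of any broad peak, the share was 49.8%, close to that of broad intervals. These data do not tell whether both lay on the same molecule or in different cells.

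For day-3 5hmC within broad intervals, base pairs and whole intervals gave opposite orders with respect to fibroblast 5mC. It covered 38.6% of the broad length that fibroblast 5mC covered and 35.2% of the rest. By interval, day-3 5hmC covered at least 50% of 483 of the 1586 broad intervals with fibroblast 5mC, or 30.5% (28.2 to 32.8), and of 352 of the 970 without it, or 36.3% (33.3 to 39.4). Over all iPS 5hmC peaks these shares were 29.2% (28.8 to 29.5) and 26.2% (25.9 to 26.4), the opposite order. iPS 5mC was more frequent with fibroblast 5mC, at 672 of 1586 or 42.4% (40.0 to 44.8) with it and 58 of 970 or 5.98% (4.65 to 7.65) without it. The same held over all iPS 5hmC peaks, at 39.1% (38.7 to 39.5) and 7.32% (7.17 to 7.48). Among the broad intervals with fibroblast 5mC, iPS 5mC was present on 40.0% (35.7 to 44.4) of those with day-3 5hmC and on 43.4% (40.5 to 46.4) of those without. The same shares over all iPS 5hmC peaks were 35.8% (35.1 to 36.5) and 40.5% (40.01 to 40.9), in the same direction. There the Wilson intervals did not overlap, but they cover counting error only and neighbouring peaks are not independent.

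Broad peaks were unevenly spread over the chromosomes. Among autosomes, their share of the iPS 5hmC peaks was highest on chromosomes 15, at 2.11% (1.804 to 2.456), 4, at 2.00% (1.76 to 2.26), and 11, at 1.92% (1.69 to 2.18). It was lowest on chromosomes 6, at 0.839% (0.673 to 1.04), and 13, at 0.905% (0.721 to 1.14). Chromosome 4 had 242 broad peaks and chromosome 11 had 233, or 1.91 per Mb, whereas chromosome 3 had 84, or 0.526 per Mb. Chromosome X held 6 of its 422 iPS 5hmC peaks as broad ones, and chromosome Y 7 of 39. The broad peaks of chromosome 6 had the lowest fibroblast 5mC cover of the autosomes, 47.7%, and the highest day-3 5hmC cover, 43.1%.

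Some broad peaks lay close to one another. The nearest other broad peak was at a median of 42.7 kb, and 713 broad peaks, or 27.9%, had one within 10 kb. Joined over gaps of up to 10 kb, these formed 295 groups, of which 78 held 3 or more, and 1843 broad peaks stood alone. No like value for peaks of other widths is given, so a grouping particular to broad peaks is not shown. Another iPS 5hmC peak of any width lay within 200 bp of 29.5% of broad and 13.9% of typical peaks. Whether the peak caller split single regions into neighbouring broad peaks was not tested. Both largest groups had 8 broad peaks. The group on chromosome 4 from 117880506 to 117943887 spanned 63.4 kb, of which broad peaks made up 54.6%. Over the whole span fibroblast 5mC covered 63.02%, day-3 5mC 64.4%, iPS 5mC 38.7%, day-3 5hmC 53.2% and fibroblast 5hmC 7.18%. The next group, 6 broad peaks on chromosome 15 from 77591406 to 77643900, had more day-3 5hmC, at 75.1%, than fibroblast 5mC, at 53.5%, and 34.1% of iPS 5mC.

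The widest broad peaks show how these covers differ from place to place. All coordinates are on mm9 and counted from 1. The widest, 18006 bp on chromosome 4 from 141017948 to 141035953, had no fibroblast 5hmC. Fibroblast 5mC covered 93.0% of it with 6 peaks, day-3 5mC 95.9% with 2, day-3 5hmC 65.7% with 7, and iPS 5mC 66.1%. The peak on chromosome 5 from 114810132 to 114824293, 14162 bp wide, had more day-3 5hmC, at 83.6%, than fibroblast 5mC, at 61.2%, and iPS 5mC covered 35.8%. On the peak on chromosome 17 from 27246931 to 27257407, 10477 bp wide, the order was the opposite, with fibroblast 5mC at 90.2%, iPS 5mC at 87.0% and day-3 5hmC at 12.9%.

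Among the 10 widest, the remaining autosomal peaks had high 5mC before induction and differed in what was listed in iPS cells. On chromosome 15 from 76002492 to 76015168, fibroblast 5mC covered 96.6% with 1 peak and iPS 5mC 93.2%. On the same chromosome from 25731930 to 25743101, fibroblast 5mC covered 85.5% and iPS 5mC 38.5%, with day-3 5hmC at 29.5%. The peaks on chromosome 5 from 115991826 to 116005613, on chromosome 8 from 123089868 to 123100860 and on chromosome 11 from 120667989 to 120678692 had 83.4% to 89.3% of fibroblast 5mC. Their iPS 5mC was 52.6%, 56.4% and 76.8%. None of these 5 peaks had more than 7.42% of fibroblast 5hmC.

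By the listed score, the best-scoring broad peaks included the highest of the whole iPS 5hmC list, on chromosome 2 from 76546812 to 76551159. It was 4348 bp wide, no 5hmC peak of either earlier list touched it, and the cover was 93.8% for fibroblast 5mC, 97.8% for day-3 5mC and 94.7% for iPS 5mC. The third by score, on chromosome 4 from 140876291 to 140882283, had 94.03% of fibroblast 5mC, 42.7% of day-3 5hmC and 15.6% of iPS 5mC. The first and the third thus had nearly the same fibroblast 5mC cover and very different iPS 5mC cover. The second by score, on chromosome 8 from 125415054 to 125421614, had 90.3% of fibroblast 5mC, 75.6% of day-3 5hmC and 85.9% of iPS 5mC. A score of exactly 3100 was listed for 38 broad peaks and for 45 of all iPS 5hmC peaks. What that value stands for is not stated, so a ranking close to it may not order peaks by strength.

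A small set of broad intervals was covered in each list. All 5 other lists covered at least 50% of 32 broad intervals, or 1.25%, against 1.12% of all iPS 5hmC peaks, so this was no more frequent among broad peaks. These 32 held 172 kb, or 1.74% of the broad length, and their median score was 3100, a value that recurred in each list. They included 9 on chromosome 11, 7 on chromosome 17, 5 on chromosome Y and 1 on chromosome M, the mitochondrial genome. Chromosome M aside, 13 of the 32 began before position 3.2 Mb of their chromosome, where 15 broad peaks began in all. These 13 were the 5 on chromosome Y and the other group of 8, on chromosome 11 from 3031603 to 3097507. Each other list covered 98.4% to 99.1% of that group. The last iPS 5hmC position listed on chromosome Y was 2.90 Mb, so all 7 of its broad peaks began before 3.2 Mb in any case. The widest of the 32, on chromosome Y from 2848979 to 2862275, was covered whole by 1 peak in each of the 5 other lists. A different peak of that chromosome, from 2882689 to 2893955, was covered whole by day-3 5hmC, day-3 5mC and iPS 5mC and had no fibroblast peak of either mark. What sequence lies in these intervals was not analysed here. Without them, the differences between broad and typical intervals stayed within their counting intervals, as defined below.

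At the other end, 33 broad peaks, or 1.29% (0.921 to 1.81), touched no peak of any other list, against 25.4% of all iPS 5hmC peaks. Wide intervals meet other peaks more readily, so these shares are not comparable in size. The 33 peaks lay on 18 chromosomes, and their medians, 3244 bp in width and 488 in score, were below the 3543 bp and 787 of all broad peaks. The widest of them was the peak on chromosome Y from 2897428 to 2902368. The widest on another chromosome, named after its values were seen, was the peak of 4555 bp on chromosome 2 from 172759176 to 172763730. Among the 353 broad intervals that no other list covered by at least 50%, fibroblast 5mC still touched 226, day-3 5mC 276 and day-3 5hmC 176. The widest of these, on chromosome 16 from 35813302 to 35820817, was 7516 bp wide and had 9.46% of fibroblast 5mC, 12.7% of day-3 5hmC and 18.7% of iPS 5mC.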

How the data were processed

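Per the submitters' processing notes, CASAVA 1.8, Bowtie 0.12.7, MACS 1.4.1 and mm9 were used. Each deposited file holds the peaks of 1 library, with start, end and a score per peak from the authors' peak caller. The sources used here do not state the scale of the score, the settings, any control library or the read depth. A deeper library can give more and wider peaks from the same DNA, so levels mix the mark with the depth, while broad and typical intervals are compared within 1 list. Wider peaks had higher scores. Scores classed peaks within a list, and 1 alternative applied the same score minimum to all 6 lists, whose scores need not share a scale.

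Widths are end minus start. Covered base pairs were summed over intervals with Python 3.11.15, numpy 2.4.6, pandas 2.3.3 and scipy 1.17.1, and figures were drawn with matplotlib 3.10.9. The counting was tested on 10000 simulated intervals, with 0 wrong. Shares of intervals have 95% Wilson intervals, which cover counting error only, since neighbouring peaks are not independent. The counting interval of a difference in cover was a 95% margin of 1.09 to 1.93 percentage points to each side, depending on the list. It treated each interval as 1 independent draw that is covered or not. It therefore sorts changes by size and is not the error of a share of base pairs. Samples were grouped by their titles, 1 library per stage and mark, so no p-values are given. Named regions are the 10 widest and 3 best-scoring broad peaks, the widest of the 4 commonest combinations and of those without overlap, and the 3 largest groups. The intervals and rules were chosen with earlier results of these data known. Alternatives changed widths, scores, list lengths, overlap, chromosomes and the part of the interval measured. No mm9 sequence or annotation was used here, so genes, CpG content and repeats were not analysed here and no sequence is shown.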

Additional observations from a re-analysis of the deposited data

Results flagged for a closer look

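The 2 earlier 5hmC lists went in opposite directions on broad intervals in the share of base pairs covered. The cover of broad minus that of typical intervals was -3.22 percentage points for fibroblast 5hmC and 12.1 percentage points for day-3 5hmC. The difference between the stages was not tested, as each rests on 1 library. Both values rest on typical intervals of mostly lower score. Against the typical intervals with a score of at least 236, the differences were -17.7 and 0.701 percentage points. By any overlap, which favours wide intervals, both lists were more frequent on broad intervals. The shares of broad and typical intervals were 25.6% and 14.2% for fibroblast 5hmC, and 70.5% and 30.5% for day-3 5hmC.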

How the results depend on the processing

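The differences in cover between broad and typical intervals, in percentage points, were recomputed under 10 alternatives for each of 5 lists. The direction stayed in 49 of 50, and 28 of 50 stayed within the counting interval. With typical intervals of a score of at least 236 only, an alternative added after the data were seen, the difference was -17.7 for fibroblast 5hmC, 0.701 for day-3 5hmC, 1.94 for fibroblast 5mC, 1.34 for day-3 5mC and -1.65 for iPS 5mC, which turned. Broad peaks from 4000 bp numbered 761 and gave -1.92, 16.4, 32.5, 28.4 and 24.2 in the same order. Broad peaks from 2500 bp numbered 5091 and gave 24.7, 21.6 and 15.4 for the 5mC lists of fibroblasts, day 3 and iPS cells. Joining iPS 5hmC peaks within 200 bp, also added later, by coincidence gave 5091 broad intervals as well, with 10.1 for day-3 5hmC and 21.2, 18.3 and 13.5 for the 5mC lists. Keeping scores of at least 100 in all 6 lists gave -4.41 for fibroblast 5hmC and 28.9 for fibroblast 5mC. With the 42301 best-scoring peaks of each other list, the differences were 14.4 for day-3 5hmC, 34.8 for fibroblast 5mC and 38.4 for day-3 5mC. For fibroblast 5hmC this number is the whole list, so its value was unchanged by construction. That value is still counted in the 49 and the 28. Only the first of these alternatives brought the differences of day-3 5hmC and the 5mC lists close to 0. The central 500 bp, autosomes only, other typical widths and leaving out the intervals covered in each list moved no difference beyond its counting interval. No paired analysis was possible because each stage and mark had 1 library. The unknown depth limits what a missing peak shows.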
